A study of Mus musculus with 20 samples.

Results

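Cxcl9-positive tumour macrophages are tumour-infiltrating macrophages in which at least 1 transcript of the chemokine gene Cxcl9 was counted. They were chosen from the counts of 4 single-cell RNA libraries. A barcode was kept with at least 500 genes and at most 10% mitochondrial UMIs (unique molecular identifiers, 1 per captured transcript). A kept cell was called a macrophage with at least 20 UMIs over C1qa, C1qb, C1qc and Lyz2, at least 4 UMIs over the 3 C1q genes, at most 2 UMIs over Cd3d, Cd3e and Cd3g, and fewer than 10 UMIs over the pigment genes Mlana, Pmel, Dct and Tyrp1. This gave 744 macrophages among 7398 kept cells, of which 479 held Cxcl9 and 265 did not. Cxcl9-positive cells were thus 64.4% of the macrophages and 6.47% of all kept cells.

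The series addresses how Tet2, an enzyme that oxidises methylated cytosine in DNA, acts in T cells within a tumour. OT-I CD8 T cells, which carry a transgenic receptor for an ovalbumin peptide, were transferred into mice with B16-OVA, a mouse melanoma line that makes ovalbumin. The 4 libraries were made 8 days after transfer, and each is the only one of its group: Tet2-/- OT-I T cells with anti-PD-L1 (KO with anti-PD-L1), Tet2-/- OT-I T cells without it (KO untreated), wild-type OT-I T cells with anti-PD-L1 (WT with anti-PD-L1) and wild-type OT-I T cells without it (WT untreated). All groups share the tumour line and the receptor transgene. Genotype is that of the transferred T cells. The labels name CD8+ T cells from tumours as the source and give neither the recipients' genotype, strain, age or number nor how other cells came into the libraries. A library could hold 1 mouse or several. Tet2 averaged 17.9, 22.9, 15.8 and 13.98 CPM (UMIs scaled to a total of 1000000) in T cells of KO with anti-PD-L1, KO untreated, WT with anti-PD-L1 and WT untreated. The chemistry counts transcript ends, and the labels do not say whether the deleted part includes that end, so these values check nothing about the genotype labels.

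CXCL9 is a secreted chemokine that attracts activated T cells and natural killer cells through the receptor CXCR3. Macrophages and dendritic cells make it in response to interferon gamma, which acts through DNA elements called GAS, and the same signal raises antigen presentation genes. Its relatives CXCL10 and CXCL11 share the receptor, and type I interferons act chiefly through a related element called ISRE.

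The 250 bases before the start of 4 genes are shown because the report turns on interferon gamma targets. They are the promoters of Cxcl9 itself (chr5:92328080-92328329, minus strand), of its neighbour Cxcl10 (chr5:92348890-92349139, minus strand), of the GTPase gene Gbp2 (chr3:142620413-142620662, plus strand) and of the protease inhibitor gene Serpina3g (chr12:104235897-104236146, plus strand), from RefSeq on GRCm38.p6, read 5′ to 3′. Capitals mark a match to GAS (TTCNNNGAA) or to ISRE (GAAANNGAAA or its reverse complement TTTCNNTTTC) on either strand. The 2 motifs overlapped in none of the 4 sequences.
Cxcl9: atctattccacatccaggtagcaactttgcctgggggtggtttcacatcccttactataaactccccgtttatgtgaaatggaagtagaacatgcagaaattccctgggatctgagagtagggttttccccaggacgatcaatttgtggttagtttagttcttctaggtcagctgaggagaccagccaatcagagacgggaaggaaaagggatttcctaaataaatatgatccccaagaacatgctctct
Cxcl10: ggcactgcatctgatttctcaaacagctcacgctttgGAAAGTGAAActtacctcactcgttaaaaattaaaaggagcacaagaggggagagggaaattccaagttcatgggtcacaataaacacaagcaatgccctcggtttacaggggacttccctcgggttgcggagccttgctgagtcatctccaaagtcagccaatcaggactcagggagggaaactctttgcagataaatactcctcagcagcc
Gbp2: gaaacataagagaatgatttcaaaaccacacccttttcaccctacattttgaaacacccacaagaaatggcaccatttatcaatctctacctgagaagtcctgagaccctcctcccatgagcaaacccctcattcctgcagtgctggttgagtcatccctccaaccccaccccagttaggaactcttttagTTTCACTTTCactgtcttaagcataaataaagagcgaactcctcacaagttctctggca
Serpina3g: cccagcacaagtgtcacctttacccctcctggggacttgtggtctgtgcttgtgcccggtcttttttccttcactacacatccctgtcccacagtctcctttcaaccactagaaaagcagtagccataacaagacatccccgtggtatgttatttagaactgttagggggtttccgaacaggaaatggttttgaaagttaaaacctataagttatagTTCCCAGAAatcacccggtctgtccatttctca
The Cxcl10 window held ISRE 213 bases before the start, that of Gbp2 held ISRE 59 bases before it, and that of Serpina3g held GAS 33 bases before it. The window of Cxcl9 held neither set of letters. The windows of Chil1, Tap1 and Psmb9 were also read and held neither, so the sequences shown include every match found among these genes.

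The libraries held 1277, 2221, 1603 and 2297 kept cells in KO with anti-PD-L1, KO untreated, WT with anti-PD-L1 and WT untreated, at medians of 7473, 4715, 5541 and 5166 UMIs a cell. Each pair of libraries had 1 to 10 barcodes in common, with 0 of them a macrophage in both. WT untreated stood apart before any result: none of its macrophages had over 6536 UMIs, and its macrophages held the most T cell, B cell and pigment RNA. The main counts are also given without it. No macrophage in any library held a UMI of the Y-linked genes listed, while Xist was found in 84.5% to 95.9% of them. Macrophages were 11.5% (9.81% to 13.4%), 13.9% (12.5% to 15.4%), 7.11% (5.90% to 8.48%) and 7.58% (6.53% to 8.73%) of kept cells, a share that any sort for CD8+ cells would set. Doublets were not called or removed.

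The complement gene C1qa and the lysozyme gene Lyz2 were part of the selection, so their levels and most of the marker sum below were fixed by it. In the order KO with anti-PD-L1, KO untreated, WT with anti-PD-L1 and WT untreated, which the following lists of 4 values keep, C1qa had 6673, 6425, 5365 and 8194 CPM in Cxcl9-positive macrophages and 5179.9, 4562, 4741 and 6865 CPM in Cxcl9-negative macrophages. Lyz2 had 11508, 16038, 15010.4 and 7889 CPM in Cxcl9-positive and 8951, 9975, 14743 and 8387 CPM in Cxcl9-negative macrophages. Both genes overlapped between the classes. The 12 macrophage markers summed to 41804 to 46595 CPM in Cxcl9-positive and 38376.7 to 48904 CPM in Cxcl9-negative cells. Of markers that the selection did not use, the growth factor receptor gene Csf1r had 310.1, 324, 288 and 314 CPM in Cxcl9-positive and 315, 253, 369.8 and 283 CPM in Cxcl9-negative macrophages, and Adgre1, which encodes the macrophage antigen F4/80, had 336, 368, 296 and 318 CPM in Cxcl9-positive and 322, 282, 382 and 248 CPM in Cxcl9-negative macrophages. Of the genes that define dendritic cells, another source of CXCL9, Flt3 and Xcr1 were near 0. Flt3 had 0, 1, 1 and 0 UMIs in Cxcl9-positive and 0, 0, 0 and 0 in Cxcl9-negative cells. Xcr1, of cross-presenting dendritic cells, had 4, 7, 1 and 2 in Cxcl9-positive and 1, 0, 1 and 0 in Cxcl9-negative cells. The 6 markers of those dendritic cells nevertheless summed higher in Cxcl9-positive cells in all 4 libraries, at 316 to 449 CPM against 236 to 343 CPM. Of the 2 that could be tested, Cadm1, an adhesion molecule, rose (1.05 ± 0.22, adjusted p = 0.00673, edgeR's quasi-likelihood test) and Naaa, a lipid amidase, was not called (0.37 ± 0.12). The 5 markers of cDC2, another kind of dendritic cell, summed to 334 to 472 against 283 to 557 CPM, lower in WT untreated only. Sums of 4 general and 6 mature dendritic cell markers were low but higher in Cxcl9-positive cells in each library. They were 5.98 to 18.4 against 3.13 to 8.70 CPM and 5.98 to 28.3 against 3.54 to 8.89 CPM. The 7 monocyte markers summed to 836 to 2142 CPM in Cxcl9-positive and 726 to 1282 CPM in Cxcl9-negative cells, again higher in each library. That sum includes Ly6i, which is described below as a called gene. The longer list of 18 monocyte genes, which holds the same 7, summed lower in Cxcl9-positive cells in each library, at 9282, 9636, 8437 and 5377 CPM against 11996, 10999, 10550.4 and 6590.4 CPM in Cxcl9-negative cells. The part of either cell type in the results below was not tested. The 5 natural killer cell markers summed to at most 0.854 CPM in Cxcl9-positive and 8.70 CPM in Cxcl9-negative macrophages, with Ncr1, Klrb1c, Klra8 and Eomes at 0 in all Cxcl9-positive cells.

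Cxcl9 chose these cells, so its values are a description. Among macrophages with a UMI, the gene stood at 1458, 1542, 1127 and 946 CPM, with a median of 9, 6, 5 and 2 UMIs a cell. One UMI only, just inside the threshold, was held by 8, 31, 5 and 38 cells, while 10 or more were held by 57, 65, 20 and 3 cells. The highest single cell held 67, 52, 54 and 19 UMIs, which was 3.04% to 9.78% of its library's total, so no single cell carried the gene. Near the macrophage threshold, 16 cells held 20 to 29 UMIs of the selecting genes and 4 of them were Cxcl9-positive; just outside, 4 cells held 10 to 19 and 2 of them held Cxcl9.

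At full depth, Cxcl9-positive cells made up a larger part of the macrophages in both KO libraries than in both WT libraries. The share was 78.2% in KO with anti-PD-L1 (115 of 147 cells, exact binomial 95% interval 70.7% to 84.6%), against 51.8% in WT with anti-PD-L1 (59 of 114, 42.2% to 61.2%). Without antibody it was 68.0% in KO untreated (210 of 309, 62.4% to 73.1%), against 54.6% in WT untreated (95 of 174, 46.9% to 62.1%). The intervals of KO and WT did not overlap in the treated pair, and in the untreated pair they were apart by under 1 percentage point. Between anti-PD-L1 and untreated libraries of the same genotype, the intervals overlapped. All such intervals cover counting error only, and with 1 library per group neither genotype nor treatment was tested.

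Depth moves a share of this kind, and the libraries differ in it. Median UMIs were 9743, 4977.5, 8460 and 3124 in Cxcl9-positive macrophages, and 8308.5, 4072, 5239 and 2829 in Cxcl9-negative macrophages, so positive cells were the deeper class in all 4 libraries. Every macrophage held at least 2000 UMIs. Had each been read at 2000 UMIs, the expected share was 63.2% (54.9% to 71.1%) in KO with anti-PD-L1, 57.7% (51.9% to 63.2%) in KO untreated, 39.9% (30.4% to 49.1%) in WT with anti-PD-L1 and 45.3% (37.9% to 53.1%) in WT untreated. At that depth KO with anti-PD-L1 lay above WT with anti-PD-L1 with no overlap of intervals, while those of KO untreated and WT untreated overlapped slightly. At greater depths, which leave out the shallower cells, the order did not hold throughout. At 4000 UMIs the expected share was 72.6% in KO with anti-PD-L1 (138 cells), 72.2% in KO untreated (200 cells), 50.4% in WT with anti-PD-L1 (89 cells) and 74.4% in WT untreated (31 cells, 55.4% to 88.1%). At 8000 UMIs it was 81.6% in KO with anti-PD-L1 (103 cells, 72.7% to 88.5%) and 80.5% in WT with anti-PD-L1 (40 cells, 64.4% to 90.9%). Per UMI over all macrophages, Cxcl9 stood at 1175 CPM in KO with anti-PD-L1 against 682 CPM in WT with anti-PD-L1, a log2 fold of 0.78 (0.64 to 0.92). It stood at 1097 CPM in KO untreated against 549 CPM in WT untreated, a log2 fold of 1.00 (0.82 to 1.18). Anti-PD-L1 over untreated gave 0.31 (0.11 to 0.52) for WT and 0.10 (0.00 to 0.20) for KO.

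The background of free RNA was read in T cells, and melanoma cells are given beside them. T cells were kept cells with at least 3 UMIs of the Cd3 genes and melanoma cells those with at least 10 UMIs of the pigment genes, neither passing another class's threshold. Of T cells, 1.36%, 0.833%, 0.903% and 0.266% held a Cxcl9 UMI, at medians of 6831, 4442, 5443 and 3753 UMIs a cell. Melanoma cells, deeper at 31763, 13462, 25554 and 10260 UMIs, held one in 33.3%, 31.3%, 23.5% and 9.38%, which became 7.42%, 13.1%, 7.11% and 3.56% at 2000 UMIs. A C1q UMI was found in 35.4%, 19.2%, 17.6% and 14.9% of those melanoma cells, so in KO untreated and WT with anti-PD-L1 more of them held Cxcl9 than C1q. Whether melanoma cells made Cxcl9 was not tested. The macrophage share lay above both in every library, at full depth and at 2000 UMIs. The interferon gamma gene Ifng, read in T cells of the same libraries, stood at 423, 206, 295 and 141 CPM, and the receptor gene Cxcr3 at 35.99, 37.4, 42.1 and 37.2 CPM. These 2 genes fall outside the rule for named genes. Ifng was highest in the library with the largest Cxcl9 share, but WT with anti-PD-L1, the library with the smallest, had more of it than KO untreated.

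**Figure D1:**
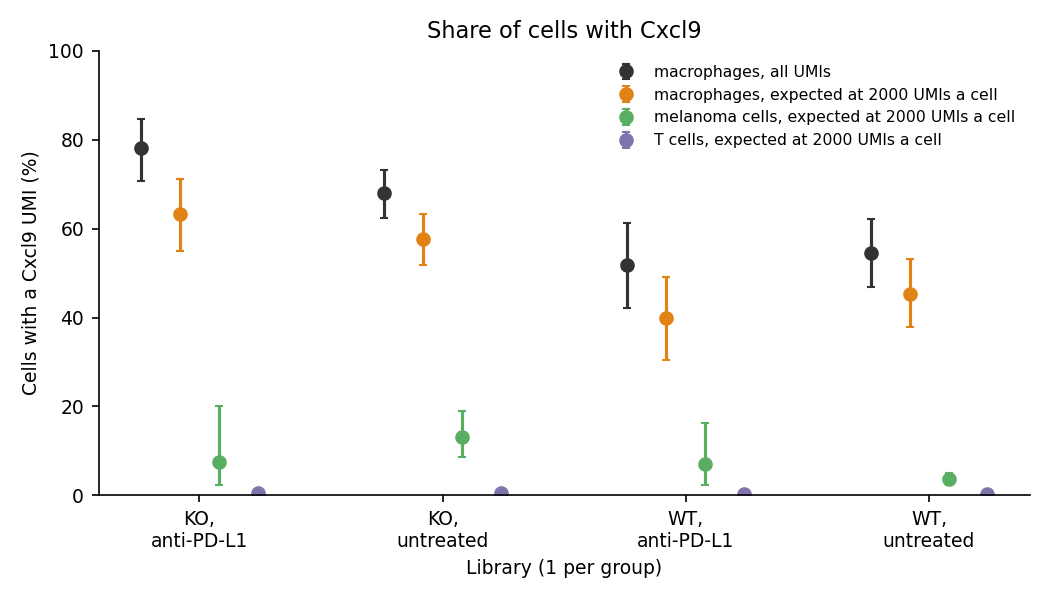
Share of cells with a Cxcl9 UMI (%, vertical axis) in each of the 4 libraries (horizontal axis), with exact binomial 95% intervals, for macrophages at full depth and for macrophages, melanoma cells and T cells at an expected depth of 2000 UMIs a cell. Macrophages of both KO libraries sit above those of both WT libraries, and T cells sit near 0.

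Cxcl9-positive macrophages were then compared with Cxcl9-negative macrophages of the same library, over all genes that the selection did not use. UMIs were summed per library and class and tested with edgeR's quasi-likelihood test with library as a term, over 3907 genes at a Benjamini-Hochberg adjusted p under 0.05. Of these, 138 were higher in Cxcl9-positive cells (3.53%) and 161 were lower (4.12%), or 7.65% in all. The direction was the same in all 4 libraries for 275 of the 299. The median log2 fold over all tested genes was 0.01. Positive and negative cells of a library share mice, capture and sequencing, and the 4 libraries are of 4 different conditions. The test takes its spread from these 4 libraries and moderates it with that of the other genes. Each p-value and SE comes from that moderated spread. An SE can thus be far smaller than the spread of a gene's own folds by library. Chil1, for example, had log2 folds of 3.83, 2.48, 3.74 and 0.38 at an SE of 0.23. Mmp12 had -4.19, -8.36, -2.73 and -0.98 at an SE of 0.54.

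Ccl5, a chemokine that also draws T cells, was the most abundant of the 15 genes with the largest rise. It had 2886, 2997, 4834 and 393 CPM in Cxcl9-positive and 524, 1211, 652 and 161 CPM in Cxcl9-negative macrophages. The ranges of the classes overlap only through WT untreated, where both classes were low. The log2 fold was 2.06 ± 0.20 (SE from the moderated test, 4 libraries, adjusted p = 9.32e-06 by edgeR's quasi-likelihood test). T cells of the same libraries held 4358, 2162, 5046 and 489 CPM of it. Summed T cell markers were at 56.4 to 186 CPM in Cxcl9-positive and 70.8 to 252 CPM in Cxcl9-negative macrophages. The selection itself limits the UMIs of 3 of these 10 markers in both classes, and Cxcl9-positive cells were the deeper class. Without macrophages that held a UMI of the Cd3 or pigment genes, the log2 fold of Ccl5 was 2.26 (adjusted p = 2.18e-07, edgeR's quasi-likelihood test). That setting removes cells by these few genes only, and the part of T cell RNA in the Ccl5 values was not tested.

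Chil1, which encodes a secreted chitinase-like protein, had 226, 339.7, 859 and 12.6 CPM in Cxcl9-positive and 14.2, 59.99, 62.7 and 8.7 CPM in Cxcl9-negative macrophages. It was high in 3 libraries and near absent from both classes of WT untreated. A Chil1 UMI was found in 31.3, 35.7, 67.8 and 4.21% of Cxcl9-positive cells, against 9.38, 12.1, 25.5 and 2.53% of Cxcl9-negative cells, while T cells held at most 0.241 CPM. Its log2 fold of 3.17 ± 0.23 was the largest rise among the genes named by rule (adjusted p = 8.81e-07, edgeR's quasi-likelihood test).

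Ly6i, a Ly6 family surface protein of monocytes, showed the same pattern by library, with 356, 457, 423 and 47.2 CPM in Cxcl9-positive and 14.2, 64.4, 68.9 and 39.2 CPM in Cxcl9-negative macrophages (log2 fold 2.79 ± 0.27, adjusted p = 9.07e-06, edgeR's quasi-likelihood test). Dnase1l3, an enzyme that digests extracellular chromatin, was more even. Its level was 102, 105, 141 and 84.9 CPM in Cxcl9-positive and 21.2, 26.7, 28.2 and 17.4 CPM in Cxcl9-negative macrophages, with no overlap of the classes. The log2 fold of Dnase1l3 was 2.17 ± 0.21 (adjusted p = 9.32e-06, edgeR's quasi-likelihood test), and it stayed between 1.77 and 2.52 under every alternative tried.

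The other genes of the 15 with the largest rise fall into a few kinds. The complement gene C3 (log2 fold 1.46 ± 0.20) and the interferon-induced protease inhibitor gene Serpina3g (1.37 ± 0.18) were higher, as were Batf2 (1.30 ± 0.29), a transcription factor of activated macrophages, and Upp1 (1.23 ± 0.19), a uridine phosphorylase. The adjusted p-values of these 4 genes were 0.000216, 0.00016, 0.0095 and 0.000478 by edgeR's quasi-likelihood test. Lpcat2, which makes platelet-activating factor, rose by 1.29 ± 0.21, and Clec5a, a myeloid lectin receptor, rose by 1.27 ± 0.29. Fbxw5, a part of a ubiquitin ligase, rose by 1.22 ± 0.36, and its adjusted p of 0.0487 was just under the threshold and missed it under 7 of the 9 alternatives that could test it. Batf2 missed it under 5 of 9 and Clec5a under 5 of 11. The remaining 4 genes, Cdca3, Top2a, Birc5 and Stmn1, belong to dividing cells and are described with the cell cycle genes.

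**Figure D2:**
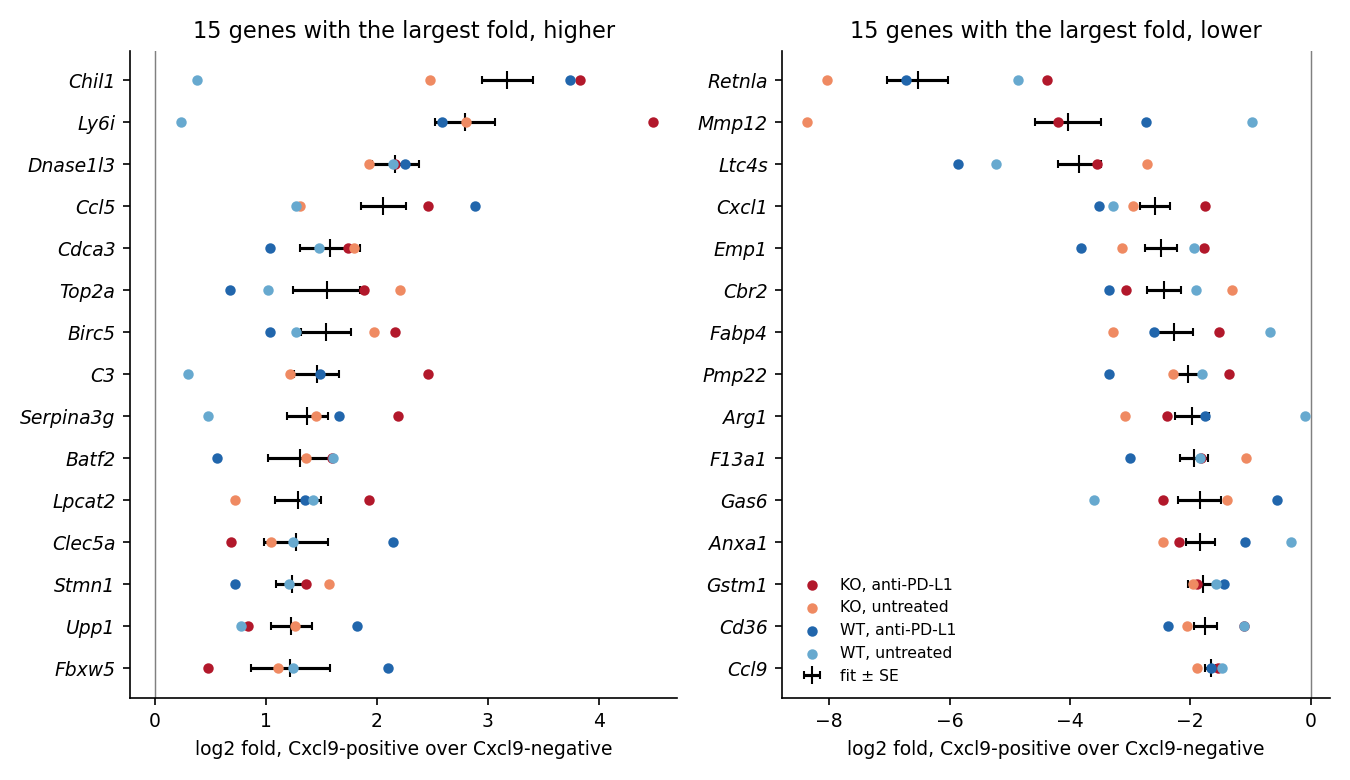
Log2 fold of Cxcl9-positive over Cxcl9-negative macrophages (horizontal axis) for the 15 genes with the largest rise and the 15 with the largest fall (vertical axis), in each library (coloured points) and as fitted (black, ± SE). WT untreated lies closest to 0 for Chil1, Ly6i and Arg1, while Dnase1l3 and Ccl9 differ little between libraries.

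Interferon gamma targets were among the genes that rose. Of 27 tested members of the interferon gamma list, 11 rose and 0 fell, and the list's median log2 fold was 0.47. Gbp2, a guanylate-binding protein, had 653, 497, 489.9 and 352 CPM in Cxcl9-positive and 365, 373, 260.1 and 222 CPM in Cxcl9-negative macrophages, and it was higher in Cxcl9-positive cells within each library (log2 fold 0.68 ± 0.11, adjusted p = 0.000661, edgeR's quasi-likelihood test). Of the same family of GTPases, which act against pathogens inside cells, Gbp4 (0.93 ± 0.16), Gbp8 (0.72 ± 0.21) and Gbp7 (0.59 ± 0.16) rose too. Smaller rises were those of Fgl2, Fcgr4 and Ly6a, at 0.47, 0.43 and 0.34. The list holds Serpina3g, Batf2 and Upp1 from above. The count was 11 of 28 without WT untreated and 7 or 8 of 27 without any other library, with 0 lower each time, and it was 4 of 25 with the class taken from one random part of the UMIs and the sums from the rest.

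Genes upstream of these targets did not pass the test. The receptor gene Ifngr1 had 110.2, 135, 108 and 167 CPM in Cxcl9-positive and 138, 113, 185 and 87.0 CPM in Cxcl9-negative macrophages (log2 fold -0.05 ± 0.20, adjusted p = 0.94, edgeR's quasi-likelihood test). Ifngr2 gave 0.28 ± 0.18, and the transcription factor gene Irf1 gave 0.23 ± 0.15, with adjusted p-values of 0.427 and 0.409 by edgeR's quasi-likelihood test. The signs for Ifngr1 and Ifngr2 were not stable between alternatives. The list of 5 tested interferon receptors and kinases had a median log2 fold of -0.05. Nos2, the inducible nitric oxide synthase, stood at 72.6, 82.0, 189.8 and 18.9 CPM in Cxcl9-positive and 131, 26.7, 15.7 and 39.2 CPM in Cxcl9-negative macrophages and was not called (log2 fold 0.79 ± 0.47, adjusted p = 0.384, edgeR's quasi-likelihood test). Nos2 stayed uncalled under 14 of 16 alternatives and was called higher under the rest.

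Of 22 tested type I interferon targets, 0 rose and 1 fell by edgeR's quasi-likelihood test, near the 3.53% higher and 4.12% lower over all tested genes, and the list's median log2 fold was -0.08. The member that fell was Ifi27l2a, at 1171, 1407, 847 and 1251 CPM in Cxcl9-positive and 1607, 1451, 1018 and 2549 CPM in Cxcl9-negative macrophages. Isg15, a ubiquitin-like protein known for this response, gave 0.28 ± 0.16 (adjusted p = 0.386, edgeR's quasi-likelihood test). Whether the 2 interferon lists differ from each other was not tested.

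Among the other ligands of CXCR3 and chemokines for T cells, 2 of 5 tested genes rose, Ccl5 and Cxcl10. Cxcl10 had 599, 242, 594 and 245 CPM in Cxcl9-positive and 205, 129, 316 and 174 CPM in Cxcl9-negative macrophages (log2 fold 1.00 ± 0.14, adjusted p = 0.000166, edgeR's quasi-likelihood test). It was higher in Cxcl9-positive cells within each library, though the classes overlap between libraries. A Cxcl10 UMI was found in 71.3, 36.7, 62.7 and 20% of Cxcl9-positive and 34.4, 17.2, 20 and 16.5% of Cxcl9-negative cells. In WT untreated 1 cell held 39 of the 78 Cxcl10 UMIs of the Cxcl9-positive class. Without cells that held a T cell or pigment UMI, its log2 fold was 1.41 (adjusted p = 9.24e-06, edgeR's quasi-likelihood test). Melanoma cells held 465, 764, 605 and 525 CPM of Cxcl10, and their part in these values was not tested. Cxcl16, a chemokine held on the cell surface, gave 0.19 ± 0.10 and was not called. Cxcl11 was not analysed here.

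Chemokines for monocytes and neutrophils went the other way. Of 8 tested, 4 fell, 1 rose and the median was -0.67. Ccl9, a ligand of CCR1, had 548, 482, 376 and 424 CPM in Cxcl9-positive and 1593, 1791, 1181 and 1175 CPM in Cxcl9-negative macrophages, with no overlap and the smallest adjusted p of the named genes (log2 fold -1.66 ± 0.09, adjusted p = 3.74e-08, edgeR's quasi-likelihood test). Its neighbour in function, Ccl6, stood at 1043, 1027, 1647 and 811 CPM in Cxcl9-positive and 3367, 3018, 3105 and 3123 CPM in Cxcl9-negative macrophages (log2 fold -1.53 ± 0.12). The neutrophil chemokines Cxcl1 and Cxcl2 had log2 folds of -2.59 ± 0.25 and -1.05 ± 0.11. Ccl8, which draws monocytes, was the member that rose (0.54 ± 0.09), and it was among the abundant transcripts, at 7095, 8169, 7627 and 11634 CPM in Cxcl9-positive and 4419, 4597, 6160.4 and 8800.3 CPM in Cxcl9-negative macrophages.

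Antigen presentation by MHC class II was higher in Cxcl9-positive macrophages, with 7 of 8 tested genes called and a median log2 fold of 0.73. H2-Ab1, a chain of the class II molecule, had 9250.5, 9569, 6898 and 8081 CPM in Cxcl9-positive and 5176, 4893, 4932 and 4189 CPM in Cxcl9-negative macrophages, with no overlap (log2 fold 0.80 ± 0.09, adjusted p = 2.06e-05, edgeR's quasi-likelihood test). The peptide loading genes H2-DMb1 and H2-DMa rose by 0.90 ± 0.12 and 0.76 ± 0.10, the chains H2-Eb1 and H2-Aa by 0.75 ± 0.08 and 0.71 ± 0.08, and the invariant chain gene Cd74 by 0.63 ± 0.08. Ifi30, a lysosomal thiol reductase, rose by 0.56 ± 0.09. The protease gene Ctss was the member not called, at -0.04 ± 0.08. Without WT untreated, 7 of 8 were again called.

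In the MHC class I list 8 of 19 were called higher and 0 lower, with a median of 0.32. The called genes were those for peptide supply and loading: the tapasin gene Tapbp (0.74 ± 0.11), the peptide transporter genes Tap2 (0.73 ± 0.18) and Tap1 (0.56 ± 0.12), the proteasome activator genes Psme2 and Psme1, and the immunoproteasome genes Psmb8, Psmb10 and Psmb9. B2m, the light chain, gave 0.00 ± 0.07. The count was 3 of 19 without KO with anti-PD-L1, 4 of 19 without KO untreated or without WT with anti-PD-L1, and 2 of 16 with cells read at 2000 UMIs.

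Ligands that T cells read were mixed. Of 14 tested, Cd40 rose (0.75 ± 0.17, adjusted p = 0.0113, edgeR's quasi-likelihood test), while Tnfsf9, Lgals3 and Lilr4b fell (-0.91 ± 0.26, -0.67 ± 0.11 and -0.51 ± 0.14). Among all tested genes 3.53% rose and 4.12% fell. By DESeq2's test 0 of 12 rose and 1 fell. By edgeR's quasi-likelihood test 0 rose and 1 fell of 12 without KO untreated, and of 11 with cells thinned to 4000 UMIs. Cd274, which encodes PD-L1 and is itself a target of interferon gamma, had 171, 96.4, 133 and 47.2 CPM in Cxcl9-positive and 237, 131, 75.2 and 78.3 CPM in Cxcl9-negative macrophages. It was lower in Cxcl9-positive cells in 3 libraries and higher in WT with anti-PD-L1, and the difference did not pass the test (-0.23 ± 0.20, adjusted p = 0.596, edgeR's quasi-likelihood test). Cd86 gave 0.57 ± 0.19 and was not called, though it was with no low-count filter (0.60).

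Genes of alternative activation and of tumour-associated macrophages were the list that fell furthest, with 11 of 17 tested members lower, 0 higher and a median log2 fold of -1.25. Arg1, the arginase that depletes arginine, had 208, 106, 284 and 371 CPM in Cxcl9-positive and 1087, 907, 959 and 396 CPM in Cxcl9-negative macrophages (log2 fold -1.97 ± 0.29, adjusted p = 0.000302, edgeR's quasi-likelihood test). In WT untreated the 2 classes were close, and a single Cxcl9-positive cell held 55 of the 118 Arg1 UMIs there. An Arg1 UMI was found in 17.4, 11.9, 35.6 and 12.6% of Cxcl9-positive and 46.9, 36.4, 43.6 and 22.8% of Cxcl9-negative cells.

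Other members of the list that fell included F13a1 (-1.94 ± 0.23), which encodes a chain of coagulation factor XIII, Gas6 (-1.84 ± 0.36), a ligand of receptors for dying cells, and Cd36 (-1.75 ± 0.19), a scavenger receptor for lipids. Gpnmb (-1.57 ± 0.24), the chemokine gene Pf4 (-1.49 ± 0.17), the folate receptor gene Folr2 (-1.25 ± 0.18) and the haem oxygenase gene Hmox1 (-1.25 ± 0.15) fell by over 2-fold. The lipid sensor gene Trem2 and the selenoprotein gene Sepp1 fell by less (-0.80 ± 0.10 and -0.87 ± 0.14). The mannose receptor gene Mrc1 gave -0.57 ± 0.18 and the osteopontin gene Spp1 -1.03 ± 0.57, and neither was called in the main comparison. Both were called lower under some of the 16 alternatives. Mrc1 stayed uncalled in the same direction under 12 of them and Spp1 under 10. The osteopontin value turned positive without KO untreated. Without WT untreated 12 of 19 list members were called lower, and without cells that held a T cell or pigment UMI 9 of 14 were.

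Retnla, a secreted protein induced by interleukin 4, is a called gene that rests on few cells. It had 2, 0, 0 and 0 UMIs in Cxcl9-positive macrophages against 12, 53, 34 and 10 UMIs in Cxcl9-negative macrophages. Single Cxcl9-negative cells held 12, 49, 31 and 10 of those. Over the 4 libraries the level in Cxcl9-positive macrophages was 0.00761 of that in Cxcl9-negative macrophages (counting interval 0.000910 to 0.0282). With the highest cell of each sum removed the gene fell under the low-count filter and gave no value. The list's median was -1.25 also with Retnla at the upper limit of that interval. The same removal kept the direction of all 286 other called genes that could be tested, and 276 were called again.

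Further genes of the 15 that fell most were spread over several functions. Mmp12, the macrophage elastase, had 6.83, 0.901, 26.5 and 50.3 CPM in Cxcl9-positive and 131, 444, 182 and 100.1 CPM in Cxcl9-negative macrophages (log2 fold -4.03 ± 0.54, adjusted p = 0.000161, edgeR's quasi-likelihood test). The gap was widest in KO untreated and smallest in WT untreated. Ltc4s, which makes leukotriene C4, stood at 9.4, 8.11, 2.04 and 0 CPM in Cxcl9-positive and 113, 55.6, 175 and 56.6 CPM in Cxcl9-negative macrophages, with no overlap. Anxa1 (-1.83 ± 0.24) encodes an anti-inflammatory annexin, and Fabp4 (-2.27 ± 0.31) a fatty acid carrier. Emp1, Cbr2, Pmp22 and Gstm1 had log2 folds of -2.49 ± 0.27, -2.43 ± 0.29, -2.04 ± 0.25 and -1.79 ± 0.24.

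Lysosomal and lipid genes fell for 10 of 23 tested members and rose for 0, with a median of -0.30. Apoe, a lipid carrier and one of the markers used for the cells, had 6123, 5948, 7394 and 10864 CPM in Cxcl9-positive and 8441, 9555, 12430.5 and 14238 CPM in Cxcl9-negative macrophages (log2 fold -0.58 ± 0.08, adjusted p = 0.000133, edgeR's quasi-likelihood test). Without cells that held a T cell or pigment UMI, the log2 fold of Apoe was -0.36 and not called (adjusted p = 0.114, edgeR's quasi-likelihood test). The lipid droplet protein gene Plin2 (-1.14 ± 0.14), the protease gene Ctsl (-1.51 ± 0.20) and the cholesterol exporter gene Abca1 (-0.87 ± 0.18) fell further. Glycolysis and hypoxia genes fell for 9 of 20 tested members, with a median of -0.31. They included Bnip3 (-1.29 ± 0.16), the glucose transporter gene Slc2a1 (-0.68 ± 0.20) and the lactate dehydrogenase gene Ldha (-0.42 ± 0.09). Hk3, a hexokinase of myeloid cells, rose (0.51 ± 0.14). Oxidative phosphorylation rose for 3 of 29 and fell for 0, with a median of 0.13. Over all tested genes 3.53% rose and 4.12% fell. The count for oxidative phosphorylation was 0 of 29 at 2000 UMIs, at 4000 UMIs and without either anti-PD-L1 library by edgeR's quasi-likelihood test. It was also 0 of 29 by DESeq2's test.

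Cell cycle genes were higher in Cxcl9-positive macrophages for 6 of 11 tested members, with a median of 0.74. Birc5, the mitotic protein survivin, had 70.9, 73.9, 85.7 and 214 CPM in Cxcl9-positive and 14.2, 17.8, 40.7 and 87.0 CPM in Cxcl9-negative macrophages (log2 fold 1.54 ± 0.23, adjusted p = 0.000333, edgeR's quasi-likelihood test). Top2a (1.55 ± 0.30), Stmn1 (1.24 ± 0.15), Ube2c (1.21 ± 0.30), Tk1 (1.05 ± 0.28) and Hmgb2 (0.65 ± 0.15) were called with it, and Cdca3, outside the list, gave 1.58 ± 0.27. T cells held far more Birc5, at 233, 286, 192 and 395 CPM, and melanoma cells 186, 212, 377 and 334 CPM. The count moved with the data used, to 3 of 12 without WT untreated or without either KO library, 1 of 11 with the first listing of the barcodes, 1 of 4 at 2000 UMIs, 0 of 4 at 4000 UMIs by edgeR's quasi-likelihood test and 2 of 10 by DESeq2's test. Without cells that held a T cell or pigment UMI, 5 of 6 were called.

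Calls in the remaining lists stand beside the 7.65% called over all tested genes. Inflammatory cytokines and enzymes rose for 1 of 13 (Ptgs2, 0.83 ± 0.22), and Il1b was not called (0.68 ± 0.31). Its call depended on the setting. Il1b was called higher in cells of 4000 to 12000 UMIs (1.43) and with cells thinned to 4000 UMIs (1.03). The same held without the highest cells (0.88) and with no low-count filter (0.72), and the other alternatives left it uncalled. In the NF-kB list 3 of 18 rose and 1 fell, led by the superoxide dismutase gene Sod2 (0.97 ± 0.11). Complement and Fc receptor genes rose for 4 and fell for 3 of 19. Monocyte genes rose for 1 and fell for 3 of 13, the fallers being S100a4, S100a6 and Ifitm3 (-1.65 ± 0.15, -1.41 ± 0.11 and -0.33 ± 0.07). Immediate early and heat shock genes, which tissue dissociation raises, fell for 5 and rose for 0 of 21, with a median of -0.26. Dusp1 of that list stood at 1028, 1124, 1286 and 535 CPM in Cxcl9-positive and 1622, 1344, 1836 and 669.9 CPM in Cxcl9-negative macrophages, and the part of dissociation in the other results was not tested.

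**Figure D3:**
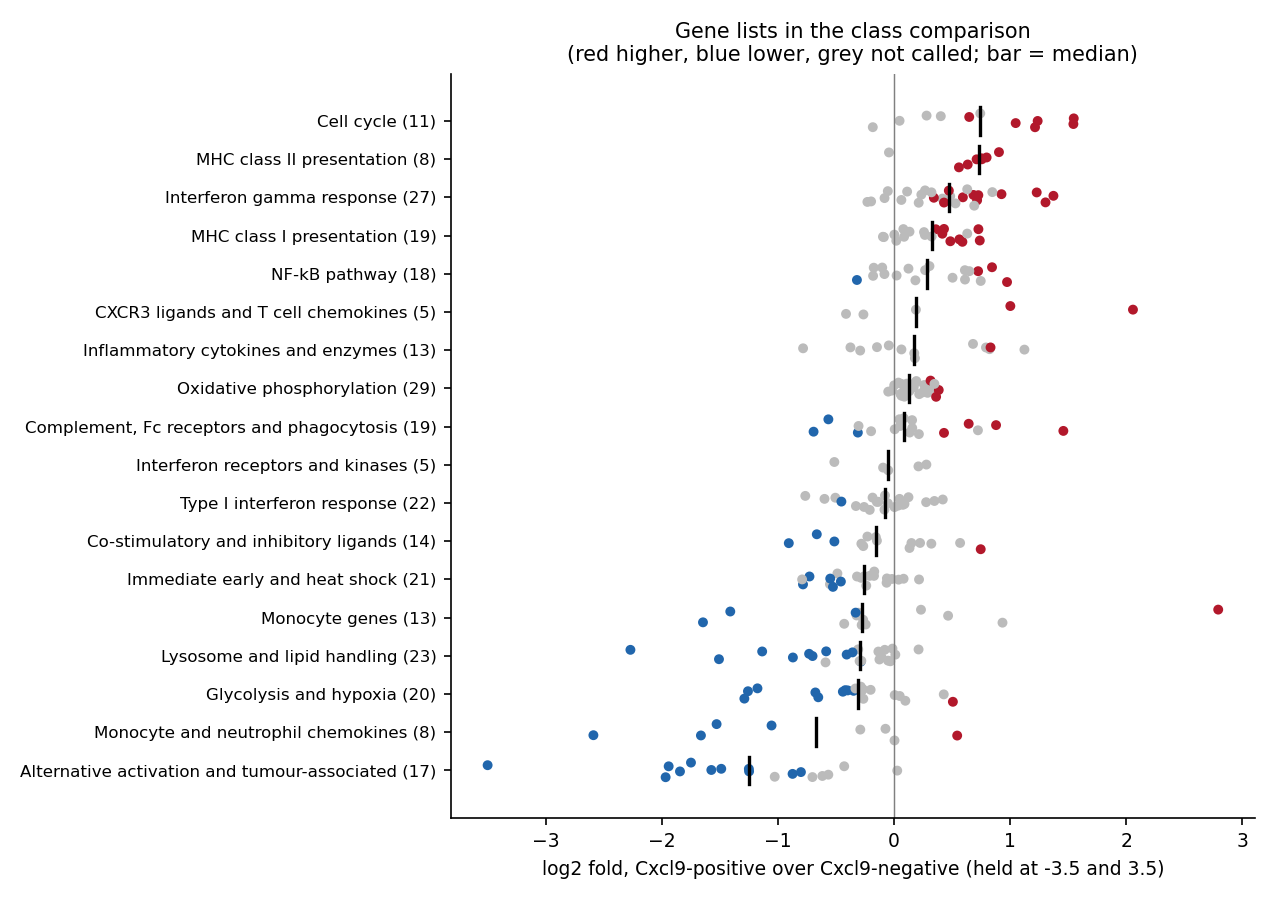
Log2 fold of Cxcl9-positive over Cxcl9-negative macrophages (horizontal axis, values beyond 3.5 in size drawn at that limit) for each tested member of 18 gene lists (vertical axis, number tested in brackets), red where called higher, blue where called lower and grey otherwise, with the list's median as a black bar. Cell cycle, MHC class II and interferon gamma lists lie furthest right, and the alternative activation list furthest left.

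The lists were also read by the amount of Cxcl9 per cell, as a description. The interferon gamma list summed to 9071, 7319, 5897 and 6338 CPM in cells with no Cxcl9 UMI, just outside the threshold, and to 10234, 8749.8, 7880 and 6942 CPM in cells with 1, just inside it. In cells with 2 to 4 it stood at 10356, 8960.2, 8243 and 7945 CPM, and in cells with 5 or more at 11950, 10151, 9479 and 8574 CPM. The alternative activation list summed to 7839, 9333, 9369 and 7926 CPM with none, to 4386, 4470.3, 3855 and 5964 CPM with 1, to 4811, 4418, 5534 and 3985 CPM with 2 to 4, and to 3096, 2556, 2957 and 3768 CPM with 5 or more, so in the anti-PD-L1 libraries it was higher with 2 to 4 than with 1. The MHC class II list was higher with 5 or more than with none in all 4 libraries, but in the anti-PD-L1 libraries cells with 1 UMI (8 and 5 cells) lay at or below those with none. Median depth was also higher with 5 or more, at 9754, 5363, 8744 and 3891 UMIs, than with none.

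**Figure D4:**
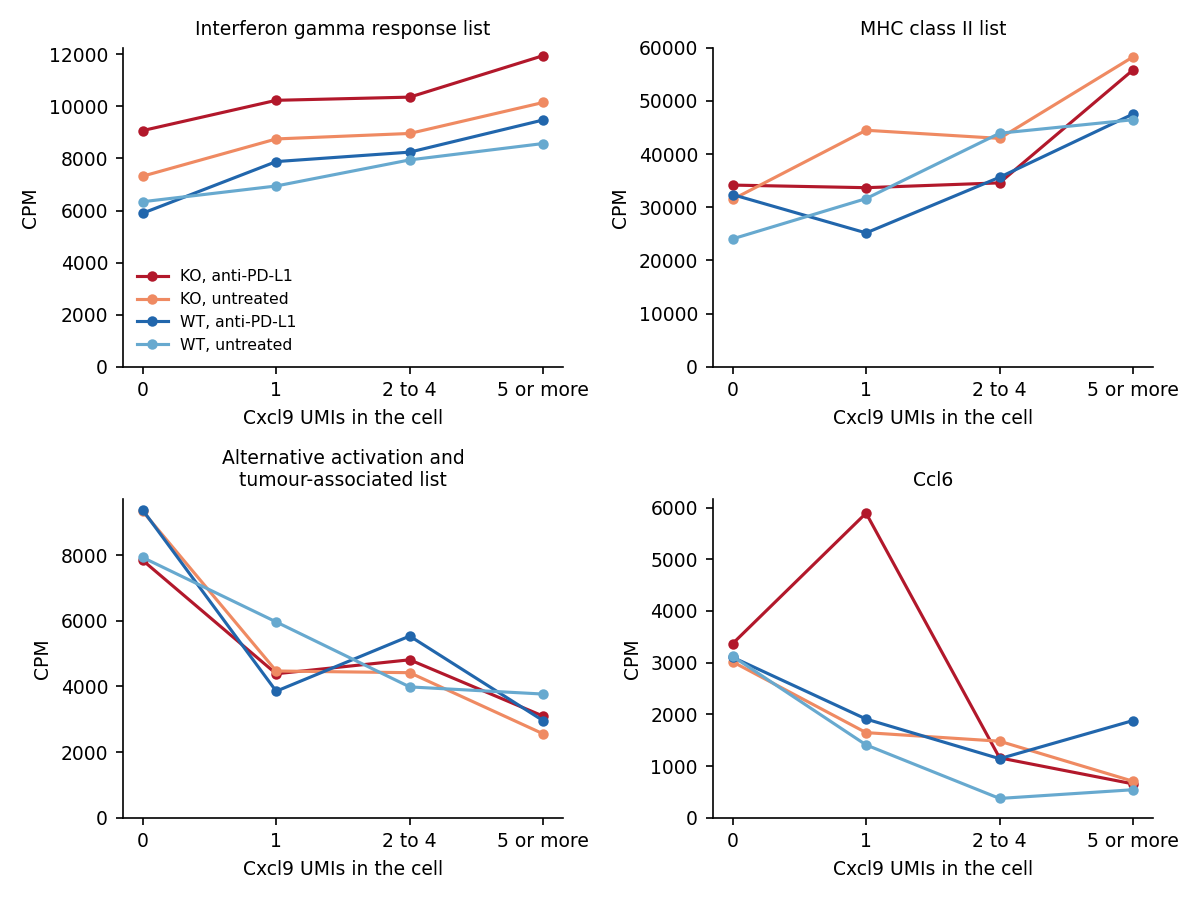
Level (CPM, vertical axes from 0) of 3 gene lists and of Ccl6 in macrophages with 0, 1, 2 to 4 and 5 or more Cxcl9 UMIs (horizontal axes), 1 line per library. The interferon gamma list climbs and the alternative activation list drops between 0 and 5 or more in every library; the Ccl6 peak in KO with anti-PD-L1 comes from 8 cells with 1 UMI.

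Across the 8 sums of UMIs (4 libraries, 2 classes), the genes whose level followed Cxcl9 most closely by Pearson's r on the log scale, among 4565 genes, were Fam26f (0.99), Aif1 (0.98), Dnase1l3 (0.97), H2-DMa (0.97) and Myo1g (0.96). The 8 points share 4 libraries and the split by Cxcl9 itself, so these are descriptions.

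GAS stood in the 250-base promoters of 8.04% of the 112 matched genes that rose, 4.58% of the 131 matched genes that fell, 7.20% of 3151 tested genes and 8.13% of all 27025 genes of the table. ISRE stood in 10.7% of those that rose, 6.11% of those that fell, 4.41% of tested genes and 3.46% of all genes. These shares describe letters in a window and say nothing of binding.

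The class difference was compared between genotypes and between treatments by adding an interaction to the same fit. It differed between KO and WT libraries for 1 of 3907 genes (0.0256%) and between anti-PD-L1 and untreated libraries for 6 (0.154%) by edgeR's quasi-likelihood test. At an unadjusted p under 0.05 these counts were 226 and 191. Ccl5 was among them: Cxcl9-positive over Cxcl9-negative cells gave log2 folds of 2.46 and 2.89 in KO and WT with anti-PD-L1, against 1.31 and 1.27 in KO and WT untreated (difference 1.38 ± 0.20, adjusted p = 0.00195, edgeR's quasi-likelihood test). Ccl12, a ligand of CCR2, was higher in Cxcl9-positive cells with anti-PD-L1 (log2 folds 1.24 in KO and 0.85 in WT) and lower without it (-1.12 in KO and -0.44 in WT; difference 1.79 ± 0.24, adjusted p = 0.000667, edgeR's quasi-likelihood test). With cells thinned to 4000 UMIs, 0 of 2262 genes were called for treatment by the same test, 81 being under an unadjusted p of 0.05. At 2000 UMIs, a depth that every macrophage had, 6 of 2117 were called. With DESeq2 size factors 5 of 3907 were.

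Between libraries, Cxcl9-positive macrophages were compared by the level of their summed UMIs, with no test. Among 2389 genes with a mean of at least 50 CPM, KO over WT untreated gave 294 genes at least 1.5-fold higher (12.3%) and 319 lower (13.4%), and KO over WT with anti-PD-L1 gave 151 higher (6.32%) and 77 lower (3.22%). Anti-PD-L1 over untreated gave 317 higher (13.3%) and 333 lower (13.9%) for WT, and 161 higher (6.74%) and 34 lower (1.42%) for KO. With TMM factors, which scale libraries to their shared genes, the splits were 451 against 189, 124 against 94, 415 against 214 and 115 against 46 in the same order. TMM shifts the log2 folds by 0.18, -0.04, 0.14 and -0.07. The 2 comparisons with WT untreated gave the most genes, and its Cxcl9-positive macrophages were also the shallowest.

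In the genotype comparisons, 21 of the 2389 genes were at least 1.5-fold higher and 16 lower both with and without antibody. The single comparisons gave 6.32% higher and 3.22% lower with antibody, and 12.3% higher and 13.4% lower without it. Whether more genes were shared than these shares alone would give was not tested. S100a4, a calcium-binding protein of migrating cells, had 170.0, 58.6, 73.5 and 15.7 CPM, a log2 fold for KO over WT of 1.21 with anti-PD-L1 (counting interval 0.69 to 1.76) and 1.90 without it (0.60 to 3.57). In Cxcl9-negative macrophages the same folds were 0.67 and 2.72. Ccl12 had 339, 238, 755 and 997 CPM, with log2 folds of -1.16 (-1.36 to -0.95) and -2.07 (-2.31 to -1.83), against -1.56 and -1.38 in Cxcl9-negative macrophages. Both KO libraries lay below both WT libraries for Ccl12, while KO untreated lay below WT with anti-PD-L1 for S100a4. The phosphatase gene Dusp2 (144, 87.4, 65.3 and 37.7 CPM) and the zinc exporter gene Slc30a1 (82.0, 76.6, 40.8 and 40.9 CPM) were higher in both KO libraries than in both WT libraries. The ribosomal protein genes Rps29 (2894, 1582, 5951 and 3937 CPM) and Rpl38 (978, 552, 1837 and 1654 CPM) and the dUTPase gene Dut (33.3, 38.7, 63.3 and 72.3 CPM) were lower. The remaining gene named by rule, Sertad1, had 104, 50.5, 53.1 and 25.2 CPM.

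Of the interferon gamma list, 25 members passed 50 CPM in Cxcl9-positive macrophages. Of these 7 were at least 1.5-fold higher and 0 lower in KO over WT, in each of the treated and untreated pairs, with median log2 folds of 0.41 and 0.48. The median over all genes was 0.09 and -0.07. Anti-PD-L1 over untreated gave 9 higher for KO and 9 higher and 1 lower for WT, with medians of 0.39 and 0.44. These medians keep their sign with TMM factors. The MHC class II list had 0 of 8 members past 1.5-fold in any of the 4 comparisons on the CPM scale; TMM factors, which add 0.18 to KO over WT untreated, took Cd74, H2-Aa and H2-Eb1 past it there.

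With anti-PD-L1, 57 of the 2389 genes were at least 1.5-fold higher than untreated in both genotypes and 5 lower. The single comparisons gave 6.74% higher and 1.42% lower for KO, and 13.3% higher and 13.9% lower for WT. Here too it was not tested whether more genes were shared than these shares alone would give. Cxcl10 had 599, 242, 594 and 245 CPM, so that both anti-PD-L1 libraries lay above both untreated ones, by log2 folds of 1.30 for KO (1.10 to 1.51) and 1.28 for WT (0.91 to 1.66). With the highest cell of each library removed they were 1.37 and 2.16. In Cxcl9-negative macrophages these folds were 0.67 and 0.86. S100a4 was higher by 1.54 and 2.22. The cytokine gene Il1b had 390.3, 160.4, 269 and 6.29 CPM and its antagonist Il1rn 224, 86.5, 120.4 and 50.3 CPM. The heat shock gene Hspa1a (539, 187, 331 and 81.8 CPM) and Jun (293, 99.1, 282 and 119 CPM), both raised by tissue dissociation, were higher with anti-PD-L1 too. The linker histone gene H1f0 (28.2, 66.7, 36.7 and 84.9 CPM) was lower. Hbb-bs, a globin of red cells, had 6.83, 360.4, 20.4 and 53.5 CPM, of which 1 cell held 380 of 400 UMIs in KO untreated.

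WT untreated also stood apart by list. In it, immediate early and heat shock genes were low: anti-PD-L1 over untreated gave 4 of 18 members higher for KO and 16 of 18 for WT, and KO over WT untreated gave 13 of 18 higher. Cell cycle genes were high in it, with 8 of 8 members lower in KO over WT untreated, 2 of 8 higher and 0 lower in KO over WT with anti-PD-L1. Melanoma markers summed to 61.5 to 107 CPM in Cxcl9-positive macrophages of the KO libraries, 95.9 CPM in WT with anti-PD-L1 and 258 CPM in WT untreated. With 1 library each, these differences and those of genotype and treatment cannot be told apart.

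**Figure D5:**
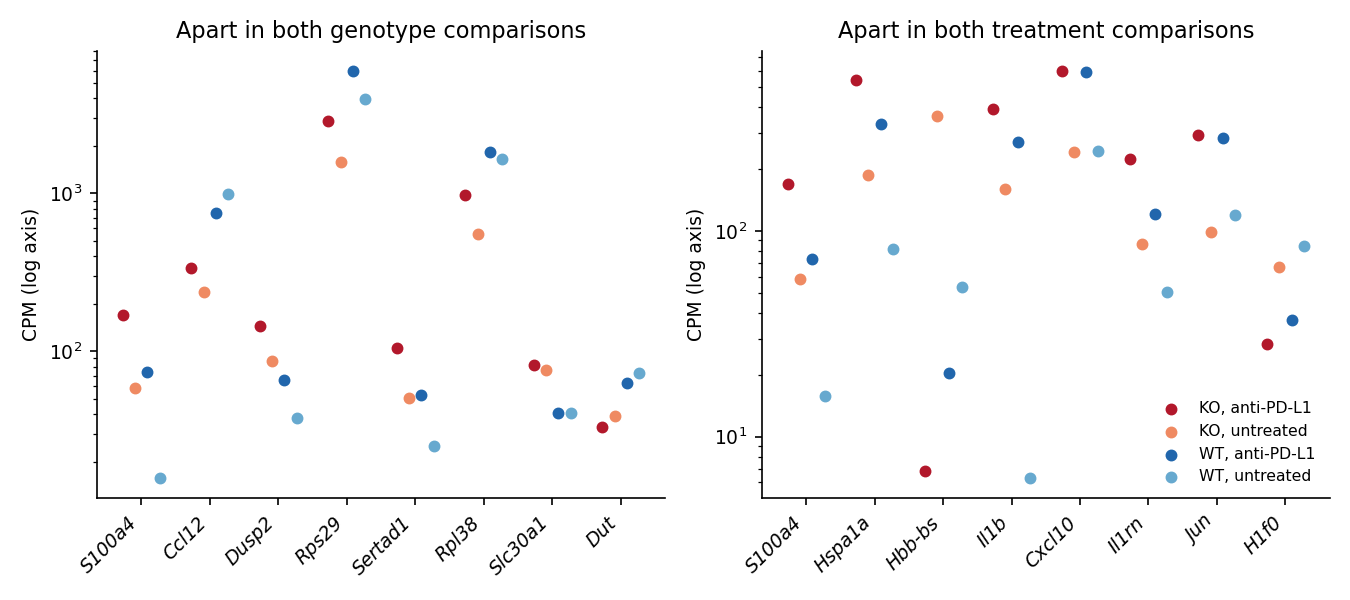
Level (CPM, log axis) in Cxcl9-positive macrophages of each library (coloured points) for the 8 genes named in the genotype comparisons (left) and the 8 named in the treatment comparisons (right). For Ccl12, Rps29, Rpl38 and Dut both KO points lie below both WT points, and for Cxcl10, Jun and Hspa1a both anti-PD-L1 points lie above both untreated points.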

How the data were processed

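The authors deposited raw UMI counts as 1 table per library, barcodes by genes, made with 10x Chromium 3′ v2 reagents according to the labels' protocols. Per the submitters' processing notes, which do not assign tools to tables, the build was mm10, and Trim Galore 0.5.0, HISAT2, Bowtie2, HTSeq, Genrich 0.5, DESeq2 and bedtools were used. No counter, annotation or cell calling is named for these tables. Most barcodes appear in 2 rows with different counts. The second listing (1346, 2312, 1680 and 2384 barcodes in KO with anti-PD-L1, KO untreated, WT with anti-PD-L1 and WT untreated) served here, and the first was an alternative. Genes common to the 4 tables numbered 28030. The other 16 samples, 8 RNA and 8 ATAC, were not analysed here.

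UMIs were summed per library and class into 8 sums of 229878 to 1170754 UMIs. These were tested with edgeR 4.0.16 in R 4.3.3 (TMM, filterByExpr at a minimum count of 10, glmQLFit and glmQLFTest, library as a term, 3 residual degrees of freedom), after a check on simulated data. The simulated counts had the same dispersion for all genes and the same class fold in every library. That check therefore does not cover genes whose folds differ between libraries. The 12 genes of the selection were not tested. Genes were named by rule: the 15 highest and 15 lowest called genes with 1 direction in 4 libraries and at least 20 CPM, list members, and, between libraries, 8 genes for each kind of comparison whose smaller fold was largest. Shares have Clopper-Pearson intervals and folds exact conditional binomial ones, both at 95% (scipy 1.17.1). UMIs of a cell are not independent, so both cover counting error only. Between libraries, 0 UMIs were replaced by 3 before a fold was taken. Shares at a fixed depth are hypergeometric expectations. No doublet caller was run. Alternatives were DESeq2 1.42.0, other filters, depths and thresholds, and each library left out. The members and the gene lists were chosen with earlier results of these data known. Of 372 list entries, 4 had no column of that name (Clec7a, Cxcl11, Mx2 and Nectin2). Some genes are not reported here.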

Additional observations from a re-analysis of the deposited data

Results flagged for a closer look

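The class difference, Cxcl9-positive over Cxcl9-negative, differed between groups of libraries for 7 genes by edgeR's quasi-likelihood test of the interaction (adjusted p under 0.05). Values are differences of log2 folds, KO minus WT or anti-PD-L1 minus untreated.

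Between genotypes, Hbb-bs differed by 5.45, where 1 Cxcl9-positive cell of KO untreated held 380 of 400 UMIs. Between treatments, Ccl5 differed by 1.38 and Ccl12 by 1.79, each with the same sign in both genotypes. Gpx3 differed by 3.93, on 53 UMIs in Cxcl9-positive and 3 in Cxcl9-negative cells of KO with anti-PD-L1. Spp1 differed by 4.35, and 1 cell held 308 of its 329 UMIs in Cxcl9-positive cells of KO with anti-PD-L1. Lyz1 differed by -1.87. Gm26917 differed by -3.42, and 1 Cxcl9-negative cell of KO with anti-PD-L1 held 101 of 109 UMIs.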

How the results depend on the processing

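All called genes that could be tested kept their direction under every alternative, except 1 gene each at 2000 UMIs (233 of 234 kept it) and in the first listing (288 of 289). Counts moved more, from 138 higher and 161 lower. They were 44 and 72 by DESeq2's own test, 205 and 199 with no low-count filter, 55 and 64 with cells thinned to 4000 UMIs, 53 and 62 at 2000 UMIs, 84 and 101 without cells that held a T cell or pigment UMI, and 61 and 85 with the class taken from one random part of the UMIs and the sums from the rest. Leaving out 1 library gave 66 to 114 higher and 91 to 155 lower, with 66 and 91 without KO untreated, 72 and 106 without KO with anti-PD-L1, 85 and 132 without WT with anti-PD-L1 and 114 and 155 without WT untreated. Thinning to 4000 UMIs left 24 Cxcl9-positive and 7 Cxcl9-negative cells in WT untreated. The alternatives at 2000 UMIs and without the highest cells were chosen after seeing the data. Why the counts moved was not tested.

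The 2 classes of a library come from the same capture, so library was the block. With no replicate block 8 genes were higher and 22 lower (411 at an unadjusted p under 0.05), and 4 of 8 MHC class II genes and 6 of 17 of the alternative activation list were called. By the same edgeR test 0 of 27 interferon gamma genes, 0 of 19 of MHC class I, 0 of 11 of the cell cycle and 0 of 5 chemokines for T cells were. No paired analysis across libraries was possible because each group has 1 library.

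The share of macrophages with Cxcl9 in KO with anti-PD-L1 was 81.6% at 8000 UMIs, 72.6% at 4000, 63.2% at 2000 and 70.1% with 3 or more Cxcl9 UMIs asked for. In KO untreated it was 73.9% at 8000 UMIs, 72.2% at 4000, 57.7% at 2000 and 49.8% with 3 or more. In WT with anti-PD-L1 it was 80.5% at 8000 UMIs, 50.4% at 4000, 39.9% at 2000 and 37.7% with 3 or more, and in WT untreated 74.4% at 4000 UMIs, 45.3% at 2000 and 22.99% with 3 or more. Thinning to 8000 or 4000 UMIs leaves out the shallower cells, and the order of KO untreated and WT untreated turned round at 4000.

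Genes past 1.5-fold between libraries numbered 228 for KO over WT with anti-PD-L1, 613 for KO over WT untreated, 195 for anti-PD-L1 over untreated in KO and 650 in WT. In that order they were 86, 255, 79 and 277 above 100 CPM, 819, 1509, 611 and 1643 above 20 CPM, and 510, 951, 310 and 998 at 4000 UMIs. They were 792, 813, 544 and 1001 at 2000 UMIs, and without cells that held a T cell or pigment UMI KO over WT with anti-PD-L1 gave 383. The interaction with genotype gave 0 genes with DESeq2 size factors (226 at an unadjusted p under 0.05) and 9 at 2000 UMIs. That with treatment gave 5 with DESeq2 size factors (182), 6 at 2000 UMIs (80) and 0 at 4000 UMIs (81).

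Log2 folds that changed sign, none of them called, were Cd14 at 0.0200 without cells that held a T cell or pigment UMI, Cd274 at 0.11 at 2000 UMIs and 0.0110 in cells of 4000 to 12000 UMIs, and Ifngr2 at -0.0152 at 2000 UMIs. Ifngr1 gave 0.0896 at 2000 UMIs, 0.25 with the split UMIs and -0.28 to 0.19 with 1 library left out. Spp1 ranged over -2.03 to 0.34 with 1 library left out.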
